A study of Mus musculus with 5 samples.

Results

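Cholesterol in the endoplasmic reticulum is sensed by a small set of proteins, and 8 of their genes were followed here in newborn mouse liver. When membrane cholesterol is low, the escort protein SCAP carries the membrane-bound transcription factor SREBP2 to the Golgi, where it is cleaved and released to switch on the genes for cholesterol synthesis and lipoprotein uptake. When cholesterol is plentiful, INSIG1 and INSIG2 hold SCAP in the endoplasmic reticulum, while oxysterols activate the nuclear receptor LXR, whose targets export sterols and, through the ubiquitin ligase MYLIP (also called IDOL), lead to loss of the receptors that take up low-density lipoprotein. NPC1 moves cholesterol out of lysosomes, and STARD4 carries it through the cytosol.

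The genes were Srebf2, Scap, Insig1, Insig2, Mylip, Stard4, Npc1 and Nr1h3, taken by their symbols in the deposited tables, 8 of 36401 identifiers. The rule that picks them uses function and no measured value, although earlier results of these data were known when it was written, and all 8 passed the filter on low counts. Total RNA from lobe 1 of the liver had been sequenced in littermate pups on day 10 of life, from a line in which the Mdr2 mutation had been crossed onto the BALB/C background; the labels do not say how the allele was made. The genotypes compared were Mdr2+/+ (wild-type, n = 2 libraries) and Mdr2+/- (heterozygous, n = 3 libraries). The labels give neither the sex of the pups nor the litter of each, and nothing in them says that the libraries come from separate pups, so p-values measure the spread between these libraries, which may be technical. Mdr2 is the older name of Abcb4, the transporter that moves phosphatidylcholine into bile, and the title of the series links its low expression to inflammation in biliary atresia.

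Library totals ran from 11944157 to 17312851 estimated counts. Each level is in normalised CPM, that is, counts divided by library size with a correction for library composition, and log2FC is the log2 of the heterozygous level over the wild-type level. A gene is called when its adjusted p is below 0.05 in the quasi-likelihood test of edgeR with Benjamini-Hochberg adjustment over 13959 tested genes. Abcb4 was at 162 and 162 CPM in the wild-type libraries and at 101, 97.7 and 92.6 CPM in the heterozygous ones, in the direction the labels give (log2FC -0.74, SE 0.06, adjusted p = 3.4e-04). The 10 hepatocyte markers, such as albumin, summed to 171653 to 185402 CPM in wild-type and 184282 to 199872 CPM in heterozygous libraries. Most of this sum was albumin (Alb, 119084 to 146449 CPM). Of the 10 markers, 1 was called higher (Cps1, log2FC 0.87, adjusted p = 0.0011) and 1 lower (Apoa1, log2FC -0.21, adjusted p = 0.0458). Over all tested genes, 6.63% were called higher and 5.41% lower. Cps1 was called in 13 of 13 alternative analyses and Apoa1 in 6, with an adjusted p of 0.446 for Apoa1 under an offset for transcript length. Bulk RNA cannot tell fewer cells of a type from less RNA per cell.

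Of the 8 sterol-sensing genes, 1 was higher in heterozygous livers, 0 were lower and 7 were not called. Over all tested genes, 6.63% were called higher and 5.41% lower, so 1 call among 8 genes is near the background. In DESeq2, which called 8.68% of tested genes, 2 of the 8 were called, Mylip higher and Insig1 lower. The gene that rose was Mylip (1.40-fold). Insig1 had the lowest fold change (0.765 of the wild-type level, adjusted p = 0.0675) and missed the threshold. The median log2FC of the 8 genes was -0.01, beside 0.00 for all tested genes. Wild-type and heterozygous libraries did not overlap for 4 of the 8 genes (Mylip, Insig1, Scap and Nr1h3), where 45.5% of all tested genes had groups that did not overlap.

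**Figure D1:**
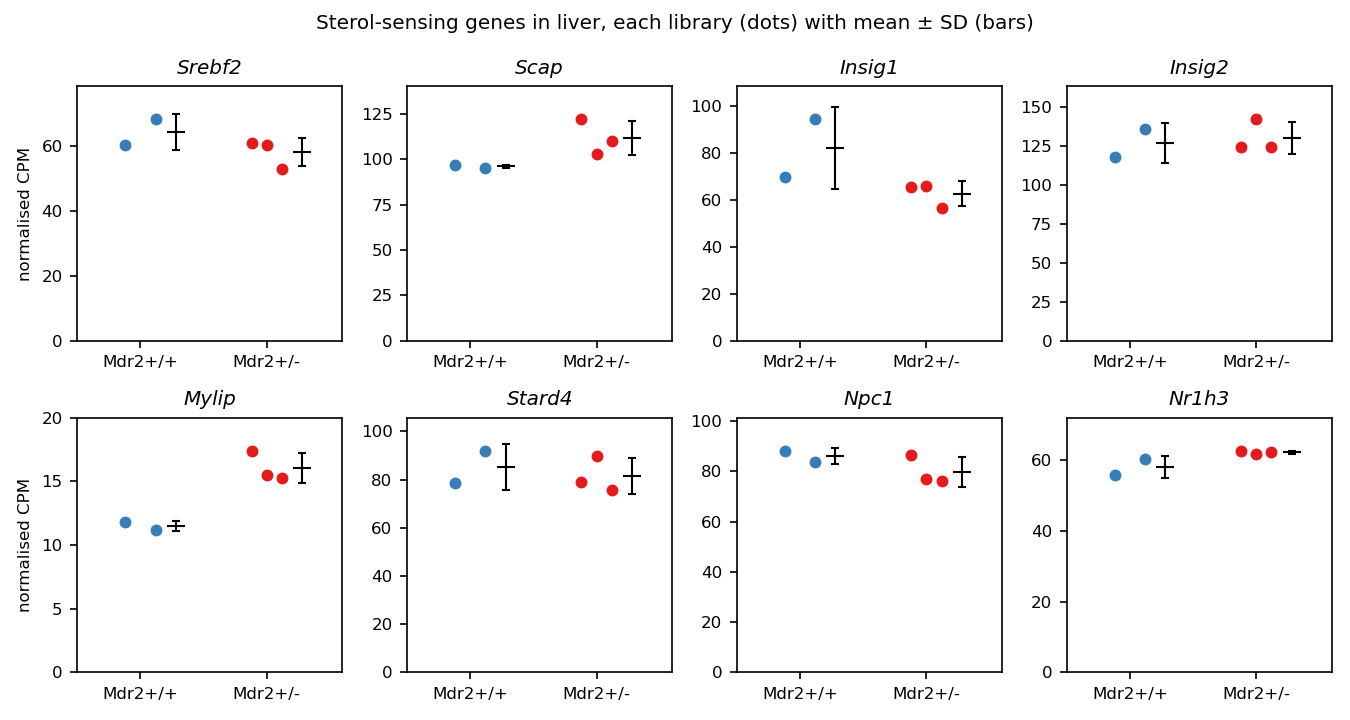
Normalised CPM (vertical axis, from 0) of each of the 8 genes in the 2 wild-type and 3 heterozygous libraries, 1 dot per library, with the mean ± SD of each genotype beside the dots. Mylip lies between 15.3 and 17.4 CPM in heterozygous libraries, above 11.2 and 11.8 CPM in wild-type, and Insig1 is highest in the second wild-type library, at 94.2 CPM.

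Srebf2 encodes SREBP2 itself (ENSMUSG00000022463, chromosome 15, 82147181 to 82205379, plus strand, mm10). It was at 60.6 and 68.4 CPM in wild-type and at 61.1, 60.4 and 53.2 CPM in heterozygous livers. The genotypes overlapped, and only the third heterozygous library lay clearly below the rest. The difference did not pass (log2FC -0.15, SE 0.08, adjusted p = 0.283), with a 95% confidence interval of -0.33 to 0.04, that is, 0.794 to 1.03 of the wild-type level. The gene hosts the microRNA gene Mir33 on the same strand, and these counts belong to the Srebf2 row alone.

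Scap, the sterol-sensing escort (ENSMUSG00000032485, chromosome 9, 110333288 to 110384950, plus strand), was at 96.7 and 95.3 CPM in wild-type and at 122, 103 and 110 CPM in heterozygous livers. All 3 heterozygous libraries were above both wild-type libraries, the second of them by the least. The difference missed the threshold (log2FC 0.22, SE 0.08, adjusted p = 0.105), and its unadjusted interval, 1.03 to 1.31 of the wild-type level, lay above equality. Scap was called in 0 of 13 alternative analyses.

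Insig1 encodes the retention protein that is itself induced by SREBP2 (ENSMUSG00000045294, chromosome 5, 28071363 to 28078662, plus strand). It was at 69.5 and 94.2 CPM in wild-type and at 65.6, 65.7 and 56.6 CPM in heterozygous livers. The heterozygous libraries were all lower, but the first wild-type library lay only a little above the nearest of them, while the second stood well apart. The log2FC was -0.38 (SE 0.12, adjusted p = 0.0675, interval 0.636 to 0.923 of the wild-type level). Insig1 was called in 4 of 13 alternative analyses: with library size alone (adjusted p = 0.0396), with no filter on low counts (0.00487), in DESeq2 (0.0395) and without wild-type replicate 1 (0.0159, log2FC -0.59). Without wild-type replicate 2 the log2FC was -0.15 (adjusted p = 0.399), so the size of the Insig1 difference rested on which wild-type library was kept.

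Insig2, the paralogue that does not depend on SREBP2 for its expression (ENSMUSG00000003721, chromosome 1, 121304353 to 121332589, minus strand), was at 118 and 136 CPM in wild-type and at 124, 142 and 124 CPM in heterozygous livers. The genotypes overlapped, and the second library of each genotype was its highest. The log2FC was 0.04 (SE 0.09, adjusted p = 0.812), and the interval ran from 0.897 to 1.18 of the wild-type level. Its sign turned when wild-type replicate 1 (-0.07) or heterozygous replicate 2 (-0.03) was left out. The log2 ratio of Insig1 to Insig2 was -0.76 and -0.53 in the wild-type libraries and -0.92, -1.12 and -1.13 in the heterozygous libraries. Insig1 was thus lower relative to Insig2 in all 3 heterozygous libraries, by 0.41 on average on the log2 scale. The exact permutation test over libraries gave p = 0.2, taken two-sided as 2 times the smaller tail. In this form the test can give no smaller p with 2 against 3 libraries, so it cannot decide whether the ratio differs.

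The start regions of Srebf2 and Insig1 are printed because both genes are known targets of SREBP2, as the synthesis enzymes described further on are. The sequences are from RefSeq (GRCm38.p6), plus strand, 5′ to 3′, beginning 250 bases before the RefSeq start and ending before the first exon that GENCODE annotates. Capitals mark matches to TCACNCCA, the core of a sterol regulatory element, and to CCAAT, the box bound by the SREBP partner NF-Y. Both motifs were searched on both strands, and on the printed strand a CCAAT box of the other strand reads ATTGG. No match to one motif overlaps a match to the other.
Srebf2, chr15:82147019-82147180: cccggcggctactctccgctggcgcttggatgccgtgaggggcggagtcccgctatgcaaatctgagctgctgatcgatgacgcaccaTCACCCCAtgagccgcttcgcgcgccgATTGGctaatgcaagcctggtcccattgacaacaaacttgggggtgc
Insig1, chr5:28071162-28071362: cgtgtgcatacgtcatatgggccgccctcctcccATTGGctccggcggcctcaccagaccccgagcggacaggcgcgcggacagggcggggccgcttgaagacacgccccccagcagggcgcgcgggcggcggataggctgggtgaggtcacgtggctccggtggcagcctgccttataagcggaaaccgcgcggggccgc

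In Srebf2 the TCACNCCA match begins 162 bases before the RefSeq start and a CCAAT box begins 135 bases before it. Insig1 has a CCAAT box 216 bases before the start and no TCACNCCA in this window. The table held 10 start windows for 6 of the 8 genes. In the 250 bases before the start, 1 of these 10 windows held TCACNCCA, against 3.67% of 32851 windows of the same length over all genes. CCAAT was in 4 of the 10 (Srebf2, Insig1, Insig2 and Mylip), against 33.8% of all windows. Such matches describe letters in a window and are not measured binding sites.

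Mylip was the called gene among the 8. It lies on chromosome 13 (ENSMUSG00000038175, 45389742 to 45412022, plus strand). Its level was 11.8 and 11.2 CPM in wild-type and 17.4, 15.5 and 15.3 CPM in heterozygous livers. The genotypes were well separated, with little spread inside either. The mean went from 11.5 ± 0.402 CPM (SD, n = 2) to 16.1 ± 1.18 CPM (SD, n = 3), a log2FC of 0.48 (SE 0.11, adjusted p = 0.0195), and the interval ran from 1.18 to 1.64 of the wild-type level. These levels rest on 133 to 263 estimated counts per library, the fewest of the 8 genes. Mylip was called in 11 of 13 alternative analyses. The call was lost without wild-type replicate 1 (adjusted p = 0.0722, log2FC 0.51) and without wild-type replicate 2 (0.0838, log2FC 0.45), where the remaining wild-type library stands alone and its spread is taken from the other genes and group. With an offset for transcript length the log2FC was 0.48 (adjusted p = 0.0235).

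Blood cell markers moved with genotype in the same libraries. The 12 neutrophil and myeloid progenitor markers summed to 111 to 163 CPM in wild-type and 361 to 460 CPM in heterozygous livers (11 of 12 called higher), with Mpo, Elane and the other defining markers all detected. The 10 B lineage markers summed to 14.4 to 20.9 CPM and 38.2 to 45.5 CPM (8 of 10 called higher). The 9 erythroid markers summed to 4531 to 5521 CPM and 2645 to 3058 CPM (8 of 9 called lower). Other lists moved less: 0 of 6 cholangiocyte markers were called, 1 of 8 stellate cell markers rose and 2 of 8 endothelial markers fell. Over all tested genes, 6.63% were called higher and 5.41% lower. The part of these cells in the Mylip difference, or in that of the other sterol genes, was not tested.

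The bases before the start of Mylip are shown for comparison with those of Srebf2 and Insig1, with the same marking, source and strand.
Mylip, chr13:45389492-45389741: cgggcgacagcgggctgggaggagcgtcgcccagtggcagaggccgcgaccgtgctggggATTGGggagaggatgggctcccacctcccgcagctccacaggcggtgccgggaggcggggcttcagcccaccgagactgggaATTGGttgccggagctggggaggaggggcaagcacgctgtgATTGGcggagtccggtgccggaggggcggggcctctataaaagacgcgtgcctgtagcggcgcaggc

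The window holds 3 CCAAT boxes, at 190, 108 and 67 bases before the start, all on the minus strand, and no TCACNCCA. By the root-mean-square difference of centred log2 CPM over the 5 libraries, the tested genes most like Mylip were Man2a2 (0.0308), a mannosidase of N-glycan processing, Pik3r4 (0.0342), a subunit of the class III phosphoinositide 3-kinase, and Gas2l1 (0.0370), a cytoskeletal linker. Man2a2 went from 25.1 ± 1.80 to 34.3 ± 2.82 CPM. In all, 45 tested genes lay within 2 times the distance of Man2a2, and with 5 libraries this likeness is a description only.

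Nr1h3 encodes LXR alpha, the sterol-activated receptor of liver and macrophages (ENSMUSG00000002108, chromosome 2, 91184061 to 91202834, minus strand). It was at 55.7 and 60.2 CPM in wild-type and at 62.6, 61.8 and 62.2 CPM in heterozygous livers. The heterozygous libraries were close together and slightly above both wild-type libraries. The log2FC of 0.10 did not pass (SE 0.06, adjusted p = 0.333), with an interval from 0.972 to 1.19 of the wild-type level. Nr1h3 overlaps the transcript Gm13783 on the same strand, so part of its reads is uncertain. Kupffer cells also express Nr1h3. The 12 Kupffer cell markers tested summed to 505 to 724 CPM in wild-type and 511 to 592 CPM in heterozygous livers. These sums overlapped. Of the 12 markers, 4 were called lower and 0 higher, where 5.41% of all tested genes were called lower and 6.63% higher. The log2FC was below 0 for 9 of the 12 and above 0 for 3. Not all 4 calls were firm: Msr1 was called in 13 of 13 alternatives, Cd163 in 10, C1qb in 9 and Marco in 7.

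Neither gene of intracellular sterol movement among the 8 passed the test. Stard4, the cytosolic carrier and another known SREBP2 target (ENSMUSG00000024378, chromosome 18, 33199355 to 33213862, minus strand), was at 78.5 and 92.0 CPM in wild-type and at 79.1, 90.0 and 75.6 CPM in heterozygous livers. The genotypes overlapped (log2FC -0.06, SE 0.09, adjusted p = 0.718), and the interval ran from 0.829 to 1.11 of the wild-type level. Its sign turned without wild-type replicate 2 (0.06). Npc1, the lysosomal exporter (ENSMUSG00000024413, chromosome 18, 12189692 to 12236400, minus strand), was at 88.2 and 83.7 CPM in wild-type and at 86.6, 76.8 and 76.1 CPM in heterozygous livers. The first heterozygous library lay between the wild-type libraries and the others lay below both. The difference did not pass (log2FC -0.11, SE 0.07, adjusted p = 0.372, interval 0.826 to 1.04). Npc1 overlaps 3110002H16Rik and Gm15956 on the opposite strand, as Scap overlaps 5830462I19Rik, and with the strand setting unknown part of their reads is uncertain.

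**Figure D2:**
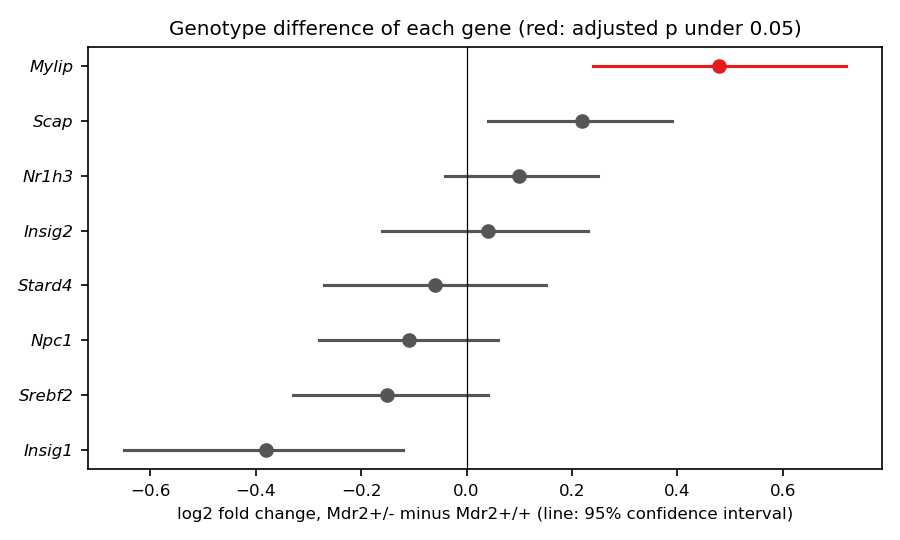
Log2 fold change, heterozygous minus wild-type (horizontal axis), of the 8 genes in order of size, with the 95% confidence interval as a line and genes with an adjusted p below 0.05 in red. Mylip at 0.48 is the gene in red, and the intervals of Srebf2, Npc1, Stard4, Insig2 and Nr1h3 include 0.

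Levels can be set side by side only per length of transcript. In normalised CPM per kilobase of the longest coding transcript, Insig2 was highest in wild-type livers (47.0 ± 4.82, n = 2), followed by Insig1 (30.4 ± 6.47), Nr1h3 (29.7 ± 1.62), Scap (22.7 ± 0.231), Stard4 (16.7 ± 1.88), Npc1 (16.5 ± 0.614), Srebf2 (12.7 ± 1.08) and Mylip (3.74 ± 0.131). The libraries of Insig1 and Nr1h3 overlapped, as did those of Stard4 and Npc1, so the order within these pairs is not resolved. In heterozygous livers Insig1 came after Scap, at 23.2 ± 1.94 CPM per kilobase (n = 3), with Nr1h3 at 31.8 ± 0.216 and Scap at 26.4 ± 2.32, and its libraries overlapped those of Scap. Insig2 at 48.2 ± 3.94 stayed first, and Mylip at 5.24 ± 0.385 stayed last. The isoforms in these livers are not known, so the lengths are approximate.

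The enzymes of cholesterol synthesis, whose genes are the best known targets of SREBP2, had larger fold changes than the sensing genes. Of 20 tested, 14 fell and 0 rose, and all 20 had a log2FC below 0 (median -0.63, beside 0.00 for all tested genes). Over all tested genes, 5.41% were called lower and 6.63% higher. Squalene epoxidase, Sqle, was at 51.3 and 63.0 CPM in wild-type and at 15.0, 18.9 and 15.4 CPM in heterozygous livers (log2FC -1.79, SE 0.12, adjusted p = 8.8e-05). The farnesyl diphosphate synthase gene Fdps was at 96.0 and 119 CPM and at 33.1, 40.1 and 35.1 CPM (log2FC -1.57, SE 0.10, adjusted p = 8.9e-05). For both enzymes, heterozygous libraries had less than 0.5 of the level of either wild-type library, a gap that none of the 8 sensing genes showed. Lss, lanosterol synthase, fell by 1.07 and Nsdhl, a sterol dehydrogenase, fell by 1.44 on the log2 scale. Cyp51, Idi1, Sc4mol, Dhcr7, Mvk, Hsd17b7, Sc5d, Fdft1, Tm7sf2 and Pmvk also fell, by 0.30 (Sc5d) to 1.40 (Idi1). Some of these calls were not firm: Tm7sf2 lost its call in 7 of 13 alternatives, Pmvk in 6, Sc5d and Fdft1 in 4 each, Hsd17b7 in 2, and Mvk, Idi1 and Sc4mol in 1 each.

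The second wild-type library was the higher of the pair in all 14 enzyme genes that fell. Among the 8 sensing genes it was the higher in Insig1, Srebf2, Stard4, Insig2 and Nr1h3 and the lower in Scap, Mylip and Npc1. Without that library 8 of 20 enzymes fell (median -0.36), and without heterozygous replicate 3 the number was 9 (median -0.56). Of the 6 enzymes that did not pass, Mvd, a decarboxylase of the mevalonate pathway, had a log2FC of -0.70 (adjusted p = 0.179), and Acat2 (0.616), Ebp (0.668) and Lbr (0.771) were also not called. Start windows were listed for 15 of the enzyme genes, and 14 of these genes had a CCAAT box and 1 a TCACNCCA in the 250 bases before a start. The common GC box, GGGCGG, was also found in 14 of the 15. Over all genes, 33.8% of windows held CCAAT, 32.7% GGGCGG and 3.67% TCACNCCA. These shares are per window, whereas the enzyme counts are per gene over any of its starts, so they cannot be compared directly.

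**Figure D3:**
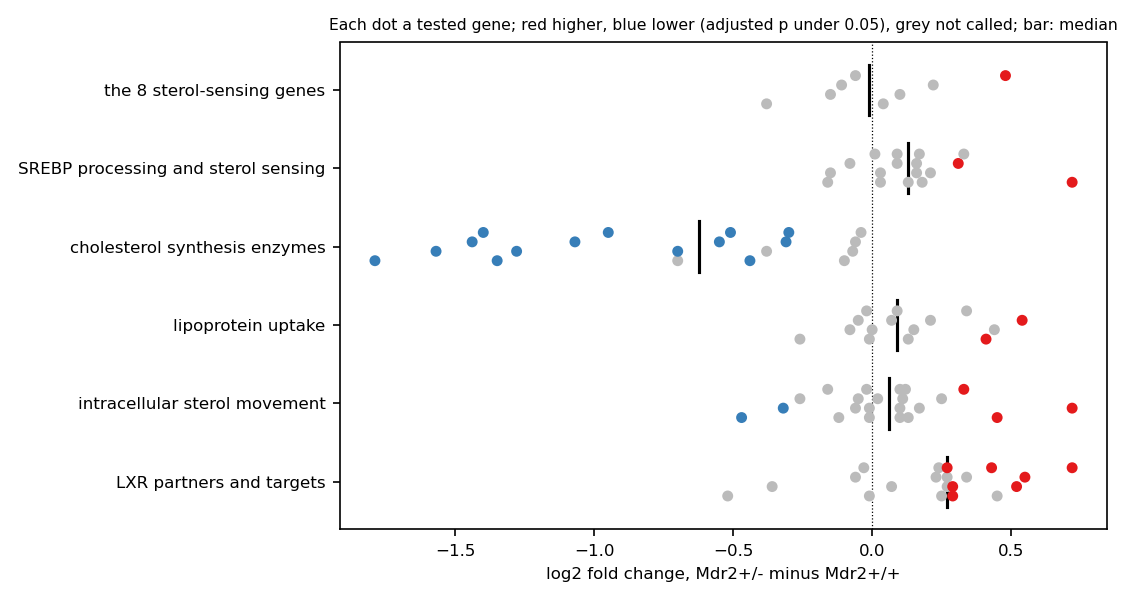
Log2 fold change, heterozygous minus wild-type (horizontal axis), of the 8 genes and of each tested gene in 5 related lists, with called genes in red (higher) or blue (lower), others in grey, and the median of each list as a black bar. The 8 genes centre on -0.01 while the cholesterol synthesis enzymes have a median of -0.63 and the LXR partners and targets one of 0.27.

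Among genes that process SREBP or report sterols to it, 2 of 17 tested rose and 0 fell, where 6.63% of all tested genes rose. The log2FC was above 0 for 14 of the 17 (median 0.13, and 0.06 with the length offset, where 1 rose). Srebf1, the lipogenic sister factor and an LXR target, was at 236 and 235 CPM in wild-type and at 393, 394 and 378 CPM in heterozygous livers (log2FC 0.72, SE 0.06, adjusted p = 3.7e-04), whereas the genotypes of Srebf2 overlapped. The difference between these genes was not tested. Nfe2l1, a membrane-bound factor that also responds to cholesterol, rose from 78.5 ± 2.90 to 97.0 ± 6.35 CPM (adjusted p = 0.0253), with the call lost in 6 of 13 alternatives (0.0507 to 0.140). The proteases that cleave SREBP did not pass: Mbtps1 had a log2FC of 0.18 (adjusted p = 0.101) and Mbtps2 one of 0.09 (0.663). Neither did Ubxn6 (0.0966), Erlin2 (0.110) or the sterol-regulated ubiquitin ligase Rnf139 (0.380).

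Of 20 LXR partners and targets tested, 7 rose and 0 fell, with a median log2FC of 0.27. Over all tested genes, 6.63% were called higher and 5.41% lower. With the offset for transcript length the median was 0.16, and 5 rose and 0 fell. Abcg5 and Abcg8 form the sterol exporter of the canalicular membrane. Abcg5 was at 76.7 and 77.7 CPM in wild-type and at 117, 106 and 110 CPM in heterozygous livers (log2FC 0.52, SE 0.07, adjusted p = 0.00174). Abcg8 was at 95.8 and 95.8 CPM and at 154, 134 and 133 CPM (log2FC 0.55, SE 0.08, adjusted p = 0.00298). In both, every heterozygous library lay far above the wild-type pair, a separation like that of Mylip. Rxra, the obligate partner of LXR, rose from 202 ± 9.54 to 272 ± 5.02 CPM (log2FC 0.43, adjusted p = 0.00384), while Nr1h2, which encodes LXR beta, was at 25.5 ± 0.369 and 25.4 ± 1.34 CPM. The cholesterol exporter Abca1 (log2FC 0.29), the coactivator Ncoa2 (0.27) and Rxrb (0.29) also rose, with Srebf1 as the seventh gene. These 3 calls were not firm: Abca1 lost its call in 6 of 13 alternatives, Ncoa2 in 9 and Rxrb in 8. The LXR targets Abcg1 (adjusted p = 0.162), Scd1 (0.110), Lpcat3 (0.684) and Apoe (0.773) did not pass. Leaving out 1 library left 4 to 6 of the 20 called higher.

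Genes of lipoprotein uptake, the process that MYLIP restrains, included 2 that rose and 0 that fell among 15 tested (median 0.09). Beside this, 6.63% of all tested genes were called higher and 5.41% lower. Lrp1, a large receptor for remnant particles, was at 446 and 411 CPM in wild-type and at 659, 613 and 603 CPM in heterozygous livers (log2FC 0.54, SE 0.07, adjusted p = 0.00206). With the offset for transcript length the log2FC of Lrp1 was 0.36 (adjusted p = 0.0106). Sdc1, the heparan sulphate proteoglycan that also binds remnants, rose from 357 ± 14.3 to 472 ± 42.4 CPM (adjusted p = 0.0141; 0.0858 without wild-type replicate 1). The heterozygous libraries were above both wild-type libraries for each. The endocytic adaptor Dab2 (log2FC -0.26, adjusted p = 0.0537) and Vldlr (0.44, 0.128), a receptor marked by MYLIP, did not pass.

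Among 22 other genes of intracellular sterol movement, 3 rose and 2 fell (median 0.06), where 6.63% of all tested genes rose and 5.41% fell. Tmem97, a binding partner of NPC1 and a known SREBP2 target, was at 62.3 and 75.5 CPM in wild-type and at 50.2, 48.6 and 50.0 CPM in heterozygous livers (log2FC -0.47, SE 0.08, adjusted p = 0.00813). It fell in all 13 alternatives, while Npc1 was called in 0. Tspo, an outer mitochondrial membrane protein, fell (log2FC -0.32, adjusted p = 0.0184). Osbpl11, an oxysterol-binding protein relative (0.45, 0.0196), the lysosomal protein gene Scarb2 (0.33, 0.0287) and Gramd1b, a sterol carrier at membrane contacts (0.72, 0.0478), rose. Calls were lost in 6 of 13 alternatives for Tspo, 5 for Scarb2, 9 for Gramd1b and 2 for Osbpl11. Npc2, the partner of NPC1 inside lysosomes, was at 70.6 ± 3.39 and 70.3 ± 5.29 CPM.

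**Figure D4:**
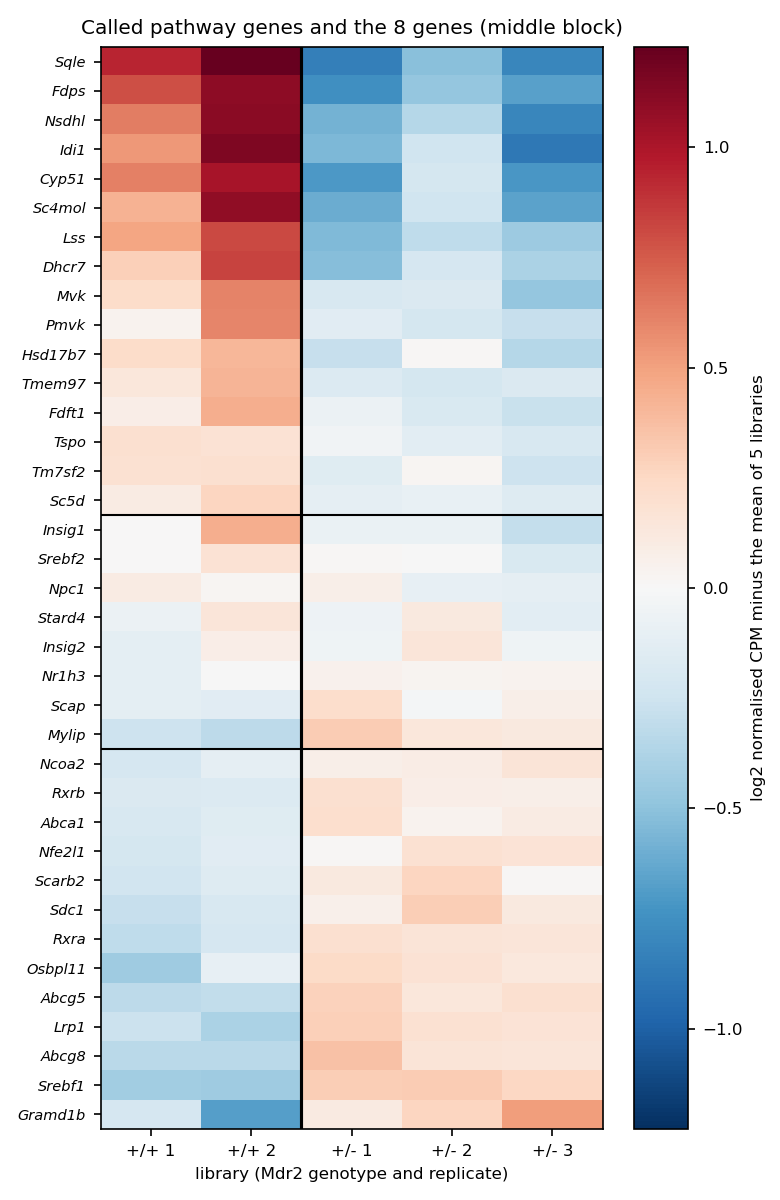
Log2 normalised CPM minus the mean of the 5 libraries (colour) for each library (columns) and gene (rows), with called pathway genes that fell at the top, the 8 sensing genes between the horizontal lines, and called pathway genes that rose at the bottom. The second wild-type library has the deepest red in the enzymes and in Insig1, and the colours of Srebf2, Npc1, Stard4, Insig2 and Nr1h3 are pale in all 5 libraries.

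Fold changes in these libraries follow transcript length, which bears on genes of unlike size. In the class of 2557 to 3549 bases, which holds Insig1, Insig2 and Mylip, 4.58% of genes were called higher and 3.95% lower (median log2FC 0.00). In the class above 5012 bases, which holds Srebf2, Stard4 and Npc1, 13.9% were called higher and 1.81% lower (median 0.11). All 3 had a log2FC below 0, and with the length offset Npc1 was at -0.18 (adjusted p = 0.137), Srebf2 at -0.22 (0.145) and Stard4 at -0.13 (0.450).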

How the data were processed

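Per the labels' protocols, total RNA from snap-frozen liver was made into TruSeq libraries that were run on a HiSeq sequencer from Illumina. Per the submitters' processing notes, TopHat and build mm10 were used; for the tool that counted reads, the annotation and the strand setting, no source used here names one. The authors deposited estimated counts per Ensembl gene, 1 table per library, not scaled to depth or length; 33.9 to 37.3% of the values above 0 were whole numbers (tolerance 1e-06).

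The estimated counts were rounded, filtered with filterByExpr (minimum count 10), scaled by TMM and tested with the quasi-likelihood test of edgeR 4.0.16 (R 4.3.3, limma 3.58.1; two-sided, no covariate). The SE is the log2 fold change over the square root of F, and intervals use the test's degrees of freedom. Simulated counts were used to test the procedure. A floor of 3 counts is 0.174 to 0.252 CPM and covers counting error only. Alternatives were 2 scalings, 2 filters, DESeq2 1.42.0, robust limma-voom, the replicate block, a length offset and each library left out. No library pair agreed within sampling noise (chi-square per degree of freedom at least 5.30). Positions and lengths are from GENCODE M21 (mm10), which matched 87.3% of identifiers. Where a list symbol had several identifiers, those at 0 in every library were left out.

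Members and lists were chosen with earlier results of these data known. The rule named Abcb4, the 8 genes, up to 4 genes of each of the 5 pathway lists by p-value, any called list gene, and the 3 genes most like each called member. Other list genes, among them the proteases, ligases, exporters and enzymes given as not passing, were named after their values were seen. A few list genes are counted but not reported here by name. Start-region motifs were also chosen after matches had been looked at.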

Additional observations from a re-analysis of the deposited data

How the results depend on the processing

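The signs of Srebf2, Scap, Insig1, Mylip, Npc1 and Nr1h3 held in all 13 alternatives. Mylip was called except when a wild-type library was left out (log2FC 0.42 to 0.52 over the 5 left-out libraries). Insig1 was called with library size alone (-0.42), no filter (-0.37) and DESeq2 (-0.39), and ranged from -0.59 to -0.15 with a library left out. With a library left out, Insig2 ranged from -0.07 to 0.15 and Stard4 from -0.18 to 0.06. The number of called genes among the 8 was 2 with library size alone, no filter or DESeq2, and 0 to 1 with a library left out; without wild-type replicate 1 the called gene was Insig1, not Mylip. Among the 97 other pathway genes, 29 were called (13 higher, 16 lower), and 17 to 22 with a library left out. Over all genes 1680 were called, 697 to 1174 with a library left out. Library size alone turned the split from 925 higher and 755 lower to 704 and 936, and moved the median of all genes to -0.04. The replicate number was tried as a block: Mylip had a log2FC of 0.52 (adjusted p = 0.0285) and Insig1 -0.31 (0.104), and 1277 genes were called; 11 of 20 synthesis enzymes fell, and of 20 LXR partners and targets 6 rose and 1 fell. Deviations of same-numbered libraries from their genotype means correlated at 0.03 for both numbers. The deviations of the 2 wild-type libraries are exact opposites (correlation -1), so these values cannot decide whether the numbers pair the libraries. For 34 further named genes (Abcb4 and genes of the pathway lists), 359 of 442 alternative values stayed on their side of the threshold, 78 lost the call, 5 gained it and 0 changed sign. The cause of these changes was not tested. For each gene, libraries of this depth and number cannot tell apart the values inside the interval given above.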
